A study of Mus musculus with 4 samples.

Results

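The EGR and IER immediate early genes are described here in macrophages from mouse tumours, as 10 genes chosen by symbol: the transcription factors Egr1, Egr2 and Egr3, their corepressors Nab1 and Nab2, the activity-induced gene Arc, the immediate early response genes Ier2, Ier3 and Ier5, and Srf, the serum response factor. All 10 were found among the 53379 gene identifiers of the deposited count table, and all 10 were among the 18422 genes that passed the filter on low counts. Macrophages of 2 C57BL/6J mice fed a high-fat diet (HFD mouse 1 and 2) were set against those of 2 such mice fed a control diet (CD mouse 1 and 2). All 4 mice carried implanted tumours of MC38, a mouse colon carcinoma line, and the cells were taken 21 days after implantation by sorting for CD45, CD11b and F4/80. No genetic change or drug is named for either diet, and the labels used here state neither the sex and age of the mice nor what the diets held or how long they were fed. Each library is 1 mouse by its title, so p-values measure the spread between mice, with 2 per diet.

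Immediate early genes are transcribed within minutes of a stimulus from factors that the cell already holds, without new protein being made first. SRF sits on a DNA element called the CArG box, together with partner factors that ERK kinases or actin dynamics switch on, and drives genes such as Egr1, Egr2, Ier2 and Fos. EGR proteins are zinc finger activators that in turn raise Nab2, and NAB proteins bind EGR factors and restrain them. In macrophages these genes respond to growth factors, Toll-like receptor ligands and adhesion, and they are also known to rise while tissue is digested and cells are sorted.

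In the HFD libraries Arc, Egr3, Ier3 and Ier5 were lower than in the CD libraries, and no member was higher. The change was 18.8-fold for Arc, 4.85-fold for Egr3, 2.98-fold for Ier3 and 1.69-fold for Ier5. The other 6 members, Egr1, Egr2, Ier2, Srf, Nab1 and Nab2, did not pass the test, although all 10 fitted differences had a negative sign. The test was the quasi-likelihood test of edgeR on the counts, HFD minus CD, with a gene called at a Benjamini-Hochberg adjusted p below 0.05 over all genes tested. Of those genes 7.91% were called lower and 2.61% were called higher, so that 4 of 10 members called lower stands beside a background of 7.91%. At an unadjusted p below 0.05 there were 7 members, all lower, against 31.3% of all genes in either direction. DESeq2 called 6 members lower, with 10.9% of all genes lower and 5.87% higher, and limma-voom called 4 members lower, with 6.86% of all genes lower and 2.16% higher. Both HFD libraries lay below both CD libraries in 8 members, against 31.6% of all genes tested. The median log2 fold change was -0.76 over the members and 0.00500 over all genes tested.

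Libraries held 36898146 and 37147582 counts from HFD mice and 34148682 and 37159552 counts from CD mice. The 10 members took 0.135 and 0.146% of the counts in HFD mice and 0.267 and 0.202% in CD mice. Defining markers of macrophages were present in every library. Ptprc, which encodes CD45, had 509.5 and 402 CPM (counts per 1000000 of the TMM-scaled library) in HFD mice and 534 and 573 CPM in CD mice. Itgam (CD11b) had 383.5 and 457.5 CPM in HFD mice and 348 and 482 CPM in CD mice. Adgre1 (F4/80) had 303.5 and 342 CPM in HFD mice and 226 and 377 CPM in CD mice. EdgeR called 0 of 18 macrophage markers, and 4 had an unadjusted p below 0.05, beside 31.3% of all genes. Limma-voom called 0 and DESeq2 2 higher. Other cell types were also represented. In edgeR's test, neutrophil markers were lower in HFD mice for 9 of the 13 tested of 15 (10 by DESeq2, 6 by limma-voom), with a summed level of 196 and 174 CPM in HFD mice and 479 and 219 CPM in CD mice. Of these sums Csf3r, not called, gave 80.8 and 83 CPM in HFD mice and 138 and 71.65 CPM in CD mice. Mmp9, also not called, gave 104.5 and 81.5 CPM in HFD mice and 124 and 73.5 CPM in CD mice. Epithelial and tumour cell markers were lower for 10 of 12 by edgeR (11 by DESeq2, 4 by limma-voom), with sums of 42.8 and 49.3 CPM in HFD mice and 171 and 144 CPM in CD mice. Of these sums Cdh1, not called, gave 38.5 and 45.2 CPM in HFD mice and 144 and 57.0 CPM in CD mice. Fibroblast and pericyte markers were higher for 10 of 15 (13 by DESeq2, 10 by limma-voom), with sums of 2350 and 2375 CPM in HFD mice and 1212 and 903 CPM in CD mice. Dendritic cell markers were lower for 2 of 15 (5 by DESeq2, 1 by limma-voom), with sums of 178 and 199.7 CPM in HFD mice and 314 and 154.5 CPM in CD mice. Of these sums Fscn1, not called, gave 107.6 and 124.2 CPM in HFD mice and 124.8 and 60.3 CPM in CD mice. Mast cell, basophil and eosinophil markers were lower for 2 of the 7 tested of 14 (5 by DESeq2, 2 by limma-voom), with sums of 6.84 and 6.41 CPM in HFD mice and 51.9 and 12.6 CPM in CD mice. T, NK and B cell markers were lower for 2 and higher for 1 of the 17 tested of 18 (3 and 1 by DESeq2, 1 and 1 by limma-voom). Their sums were 245 and 227 CPM in HFD mice and 258 and 257.5 CPM in CD mice. Most of these sums came from Ighm, not called, except in CD mouse 1. It gave 186 and 170 CPM in HFD mice and 101 and 203 CPM in CD mice, so the sums do not show the level of the other markers. Of the 8 endothelial markers tested of 11, 0 were called by edgeR, DESeq2 or limma-voom. Their sums were 47.9 and 67.2 CPM in HFD mice and 97.0 and 54.7 CPM in CD mice. Within them Pecam1, not called, gave 26.5 and 40.3 CPM in HFD mice and 78.2 and 43.15 CPM in CD mice. The log2 fold change of Pecam1 was -0.86, whereas the median of the endothelial markers tested was 0.48. No marker of these lists stood at 0 over all 4 libraries. Mitochondrially encoded genes took 2.67 and 1.59% of the counts in HFD mice and 0.757 and 1.20% in CD mice. The part of these differences in the values of the members was not tested, and in bulk RNA fewer cells that express a gene and less RNA per cell cannot be told apart.

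Promoters were available for 6 members in the RefSeq table (GRCm38.p6; 250 bases before to 50 after a start), which are Egr2, Nab1, Nab2, Ier3, Ier5 and Srf. Both strands were searched for the CArG box, the EGR site GCGNGGGCG, the cyclic AMP response element TGACGTCA, its short form TGACG, whose letters lie within TGACGTCA, and the AP-1 site TGANTCA. The CArG box is present in 1.63% of all 32851 promoters in the table, and among the members in 4 of the 5 windows of Egr2 and in Srf. The Egr2 windows that begin at 67537619, 67537620 and 67537680 overlap and hold the same CArG box, so the windows are not separate sites. The EGR site is present in 5.55% of all promoters, and in those of Nab1 and Srf. The short form TGACG is present in 20.8% of all promoters, and in Egr2, Nab1 and Srf. TGACGTCA (1.79% of all promoters) and TGANTCA (7.81%) were found in no member's window. Nab2, Ier3 and Ier5 held none of these letters in their windows.

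The windows of Egr2, Srf and Nab1 are shown, since they hold the sites of the members' own factors. Capitals mark the matches: in Egr2 the short form TGACG, the CArG box and the short form on the other strand; in Srf the short form, an EGR site and 2 CArG boxes; in Nab1 an EGR site, the short form on the other strand and 2 more EGR sites. The Egr2 window is chr10:67537619-67537918 on the plus strand, that of Srf chr17:46556113-46556412 on the minus strand and that of Nab1 chr1:52500399-52500698 on the minus strand, each written in the direction of transcription. Of these genes, Egr2 had the largest fitted difference (-1.385 on the log2 scale), and none of the 3 was called.
Egr2: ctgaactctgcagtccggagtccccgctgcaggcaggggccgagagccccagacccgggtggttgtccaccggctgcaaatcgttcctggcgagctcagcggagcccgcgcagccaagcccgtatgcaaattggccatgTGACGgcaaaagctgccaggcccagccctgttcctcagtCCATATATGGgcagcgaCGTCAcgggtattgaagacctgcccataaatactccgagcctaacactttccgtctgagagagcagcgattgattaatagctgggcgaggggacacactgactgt
Srf: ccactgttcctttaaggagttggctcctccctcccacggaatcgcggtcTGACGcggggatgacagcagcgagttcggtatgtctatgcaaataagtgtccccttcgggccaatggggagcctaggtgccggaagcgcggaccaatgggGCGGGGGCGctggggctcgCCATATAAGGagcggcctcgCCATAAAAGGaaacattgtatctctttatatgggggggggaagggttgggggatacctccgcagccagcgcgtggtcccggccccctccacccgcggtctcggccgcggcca
Nab1: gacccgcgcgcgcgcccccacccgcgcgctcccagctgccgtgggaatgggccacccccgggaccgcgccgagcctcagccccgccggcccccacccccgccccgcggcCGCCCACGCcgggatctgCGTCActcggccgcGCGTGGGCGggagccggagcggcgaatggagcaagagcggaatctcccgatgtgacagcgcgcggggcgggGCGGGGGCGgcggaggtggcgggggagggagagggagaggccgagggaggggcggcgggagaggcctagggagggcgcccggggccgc

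**Figure D1:**
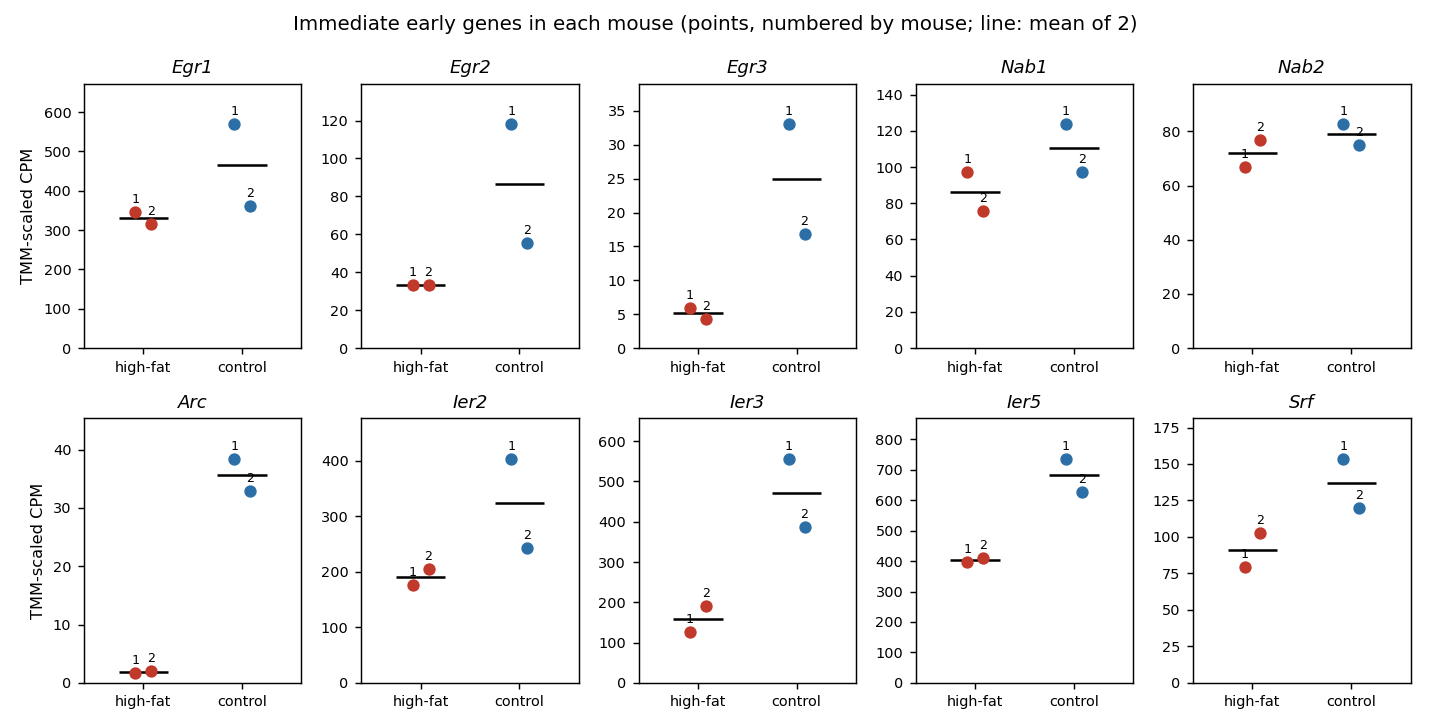
Level of each of the 10 genes in TMM-scaled CPM (vertical axes, from 0), with HFD mice left and CD mice right in each panel; points are single mice, numbered, and lines are means of 2. The HFD mice lie below both CD mice in 8 panels and overlap with them for Nab1 and Nab2, and CD mouse 1 is above CD mouse 2 in all 10.

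Within the EGR family the fitted difference was largest for Egr3, then Egr2, then Egr1, an order that was not tested. Egr3, a member of the family best known from lymphocytes, muscle spindles and neurons, lies on chromosome 14 from 70077203 to 70082614 on the plus strand (GRCm38). It had 5.98 and 4.30 CPM in HFD mice and 33.1 and 16.8 CPM in CD mice. Both HFD mice were far below both CD mice, and the CD mice themselves differed by 0.97 on the log2 scale. The log2 fold change was -2.28 (SE 0.37, 95% interval -3.17 to -1.39, edgeR adjusted p = 0.0232). The call ended without HFD mouse 1 (adjusted p = 0.0873) and without HFD mouse 2 (adjusted p = 0.115).

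Egr2, which drives myelination in Schwann cells and which in developing macrophages represses neutrophil genes together with Nab2, lies on chromosome 10 from 67535475 to 67542188 on the plus strand. It had 33.19 and 33.25 CPM in HFD mice and 118 and 55.4 CPM in CD mice. The HFD mice were nearly identical and below both CD mice, of which mouse 1 was the higher by 1.09 on the log2 scale. The fitted log2 difference was -1.385 (SE 0.34, 95% interval -2.21 to -0.56), and the adjusted p of 0.0542 missed the threshold. The value was -0.73 without CD mouse 1 and -1.83 without CD mouse 2, and either fit called the gene (adjusted p = 0.0274 and 0.000189).

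Egr1, the founding member of the family and a target of many growth signals, lies on chromosome 18 from 34859823 to 34864984 on the plus strand. It had 347 and 314 CPM in HFD mice and 569.6 and 361 CPM in CD mice. The HFD mice lay below both CD mice, but CD mouse 2 stood closer to the HFD mice than to CD mouse 1. Its log2 fold change was -0.49 (SE 0.24, 95% interval -1.07 to 0.09, adjusted p = 0.214), which was not past the threshold. It moved to -0.12 without CD mouse 1 and to -0.79 without CD mouse 2, where it was called (adjusted p = 0.0149). An expressed gene on the same strand, Kdm3b, ends 21.2 kb before Egr1 and had 110.1 and 102 CPM in HFD mice and 138 and 136 CPM in CD mice (adjusted p = 0.134).

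Between genes, levels were compared per kilobase of the longest annotated transcript. Egr1 made up 85.9 and 85.1% of the summed per-kilobase level of the 3 EGR members in HFD mice and 72.5 and 77.8% in CD mice. Egr2 made up 12.4 and 13.6% in HFD mice and 22.7 and 18.1% in CD mice, and Egr3 1.69 and 1.32% in HFD mice and 4.79 and 4.12% in CD mice. The larger share of Egr1 in HFD mice was not a higher level: Egr1 itself had 77.3 and 70.1 CPM per kilobase in HFD mice and 127 and 80.5 in CD mice. Egr4, the fourth of the family, was close to silent with 0.481 and 0.469 CPM in HFD mice and 1.48 and 1.10 CPM in CD mice (adjusted p = 0.0738).

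The NAB corepressors showed the smallest differences. Nab2, itself a known EGR target that closes a negative feedback loop, had 66.8 and 76.9 CPM in HFD mice and 82.7 and 75.1 CPM in CD mice. The mice of the diets overlapped, and the log2 fold change was -0.14 (SE 0.15, 95% interval -0.50 to 0.23, adjusted p = 0.573). Nab2 (chromosome 10, 127660918 to 127668568, minus strand) shares 40 bases with Stat6 and 1668 bases with Nemp1 on the opposite strand. The kit marks strand but the strand setting of the counting is not given in the sources used here, so some of its counts may belong to those genes. Stat6 had 219.7 and 242 CPM in HFD mice and 299 and 274 CPM in CD mice, and Nemp1 had 30.6 and 28.7 CPM in HFD mice and 21.3 and 26.2 CPM in CD mice. Nab1 (chromosome 1, 52457294 to 52500679, minus strand) had 97.3 and 75.6 CPM in HFD mice and 124 and 97.2 CPM in CD mice, also with overlap. Its log2 fold change was -0.35 (SE 0.20, 95% interval -0.83 to 0.12, adjusted p = 0.266).

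Arc differed most. It encodes a protein of retroviral origin that forms capsid-like shells and is studied chiefly in neurons, where synaptic activity induces it, and it is also expressed in migratory dendritic cells of the skin. It lies on chromosome 15 from 74669083 to 74672570 on the minus strand. Arc had 66 and 78 reads in HFD mice and 1247 and 1223 reads in CD mice, or 1.76 and 2.03 CPM in HFD mice and 38.4 and 32.9 CPM in CD mice. The mice of each diet stood close together and the diets far apart. The log2 fold change was -4.23 (SE 0.20, 95% interval -4.72 to -3.74, adjusted p = 0.00416), and by p it ranked 2 of all genes tested. Arc was called in every one of the 4 fits that left out 1 mouse, with values from -4.34 to -4.11. The 15 dendritic cell markers leaned lower in HFD mice but not as 1: 12 had a negative log2 fold change, and the median was -0.85. Both HFD mice were below both CD mice in 8, beside 31.6% of all genes. They were above both in 2, beside 5930 of the 18422 genes tested, and 5 overlapped. The markers that edgeR called lower were Clec9a, with 3.15 and 2.42 CPM in HFD mice and 15.2 and 16.5 CPM in CD mice, and Cd209a, with 0.187 and 0.156 CPM in HFD mice and 11.3 and 1.237 CPM in CD mice. Both HFD mice were above both CD mice for Ly75, with 23.2 and 18.35 CPM in HFD mice and 18.25 and 10 CPM in CD mice, and for Batf3, with 16.0 and 17.6 CPM in HFD mice and 15.2 and 11.75 CPM in CD mice; neither was called. The part of such cells in the Arc values was not tested. Among genes that reached 5 in average log2 CPM, none ends within 30 kb upstream of Arc on its strand. Arc itself stood at 4.23 on that scale, and genes below 5 were not searched.

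Ier3 led the IER genes. It encodes a small protein that is induced by NF-kB and ERK signals and protects cells from death, and it lies on chromosome 17 from 35821684 to 35822923 on the plus strand. It had 125 and 192 CPM in HFD mice and 556 and 388 CPM in CD mice. Both HFD mice were below both CD mice, with HFD mouse 1 the lowest. The fitted log2 difference was -1.575 (SE 0.27, 95% interval -2.24 to -0.91, adjusted p = 0.0276). The call ended without HFD mouse 1 (adjusted p = 0.0897, log2 fold change -1.28).

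Ier3 also had the densest AU-rich elements of the 10 genes. The pentamer ATTTA, the core of elements by which proteins such as tristetraprolin shorten the life of immediate early mRNAs, occurred 5 times in its annotated 3' UTR of 613 bases, or 8.16 times per kilobase. The other members held between 0.0 (Arc and Ier2) and 3.99 per kilobase (Nab2), against a median of 1.23 over 13531 tested genes with an annotated 3' UTR. The longer form TTATTTATT was found in Nab2 and Srf, that is in 2 of 10 members, against 7.83% of those genes. A stretch of the 3' UTR of the Ier3 transcript (GENCODE M21) is shown because it holds 2 of the pentamers, which are in capitals, close together. A match describes the letters and not their use.
Ier3: aatATTTAtgtATTTAtgtatatcctccta

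Ier5, a regulator of the heat shock factor HSF1, is a gene of 1 exon on chromosome 1 from 155096361 to 155099636 on the minus strand. It had 396 and 409 CPM in HFD mice and 736 and 626 CPM in CD mice. HFD mice were close to each other and below both CD mice. Its log2 fold change was -0.76 (SE 0.16, 95% interval -1.15 to -0.36, adjusted p = 0.0400). This call was the least stable of the 4 and ended without HFD mouse 1 (adjusted p = 0.247), without HFD mouse 2 (0.183) and without CD mouse 1 (0.0533).

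Ier2, a nuclear protein of 1 exon induced together with Fos (chromosome 8, 84661331 to 84662852, minus strand), had 175 and 204.5 CPM in HFD mice and 403 and 243 CPM in CD mice. The HFD mice lay below both CD mice, with CD mouse 1 standing apart. Its log2 fold change was -0.77 (SE 0.26, 95% interval -1.40 to -0.14, adjusted p = 0.107) and was not called. It was -0.35 without CD mouse 1 and -1.09 without CD mouse 2, where it was called (adjusted p = 0.00420). Nacc1 ends 7.63 kb before Ier2 on the same strand and had 185 and 190.1 CPM in HFD mice and 217 and 183 CPM in CD mice (adjusted p = 0.718). Per kilobase, Ier3 made up 32.0 and 39.5% of the 3 IER genes in HFD mice and 50.1 and 49.4% in CD mice.

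Srf had 79.6 and 102 CPM in HFD mice and 154 and 120.0 CPM in CD mice. The HFD mice were below both CD mice, yet HFD mouse 2 and CD mouse 2 were near each other. The log2 fold change was -0.59 (SE 0.20, 95% interval -1.07 to -0.11, adjusted p = 0.106) and was not called. It was called without CD mouse 2 (adjusted p = 0.0264, log2 fold change -0.75). The version of the Srf identifier differs from that of the annotation used, so no gene coordinates are given for it.

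Per kilobase the order of mean levels was Ier3, Ier2, Ier5, Egr1, Srf and Nab2 from the highest down in both diets, though not in each mouse. Ier3 averaged 140 ± 41.4 CPM per kilobase in HFD mice and 417.5 ± 105 in CD mice (SD, n = 2 each). Ier2 averaged 125 ± 13.6 in HFD mice and 212 ± 74.4 in CD mice, and Ier5 averaged 123 ± 2.84 in HFD mice and 207.9 ± 23.75 in CD mice, so the levels of Ier2 and Ier5 did not differ beyond their spread. In HFD mice the level of Ier3 did not differ from those of Ier2 and Ier5 beyond its spread either. In HFD mouse 1 the order was Ier5 (121 CPM per kilobase), Ier2 (115) and Ier3 (111). Arc averaged 0.621 ± 0.0625 in HFD mice, the lowest of the 10, and 11.7 ± 1.29 in CD mice, above Egr3 there with 6.33 ± 2.92.

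**Figure D2:**
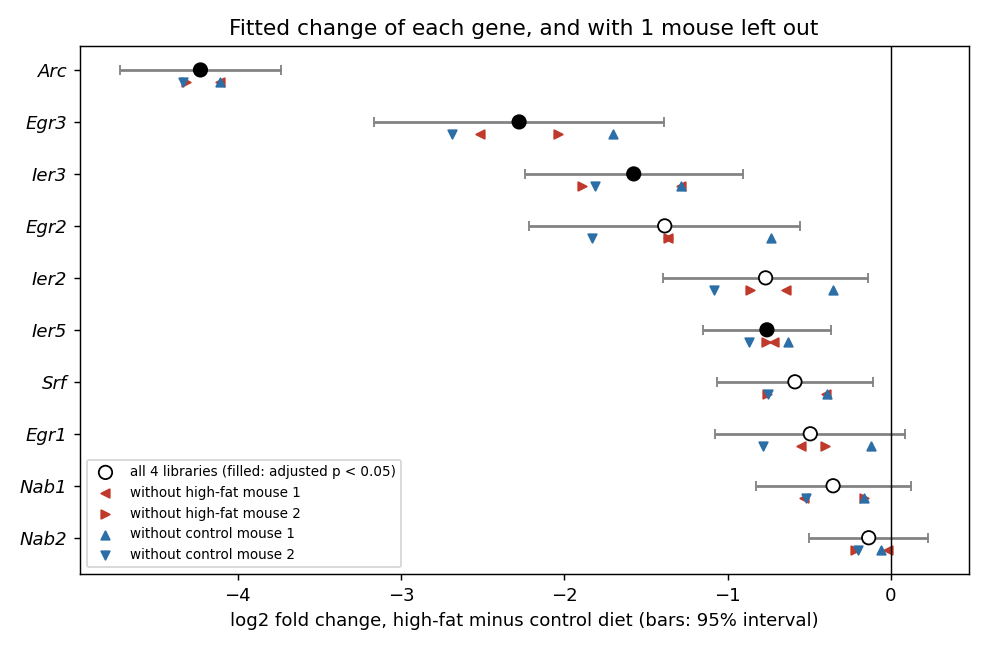
Fitted log2 fold change of each gene, HFD minus CD (horizontal axis), with circles for all 4 libraries (filled where adjusted p is below 0.05), bars for 95% intervals and triangles for fits without 1 mouse. Arc sits between -4.34 and -4.11 in every such fit, and the value without CD mouse 1 is the closest to 0 of the 4 such fits for every gene but Ier3, Nab1 and Nab2.

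The CD mice were not alike. All 10 members were higher in CD mouse 1 than in CD mouse 2, by 0.14 (Nab2) to 1.09 (Egr2) on the log2 scale, with a median of 0.44. Over all genes tested the median of that log2 ratio was -0.00596, with an SD of 0.65. Between HFD mouse 1 and HFD mouse 2 the members' log2 ratios ran from -0.61 (Ier3) to 0.47 (Egr3), with a median of -0.12. The median log2 ratio of CD mouse 1 over CD mouse 2 was also positive for most marker lists. It was 1.17 for neutrophil, 1.44 for dendritic cell, 1.455 for T, NK and B cell and 1.49 for mast cell, basophil and eosinophil markers. For endothelial markers it was 0.82, and for fibroblast and pericyte markers 0.43. It was negative for epithelial and tumour cell markers (-1.66) and for macrophage markers (-0.094). Over the fits without 1 mouse, the number of members called lower was 1 without HFD mouse 1 (Arc), 2 without HFD mouse 2 (Arc and Ier3), 4 without CD mouse 1 (Egr2, Egr3, Arc and Ier3) and 8 without CD mouse 2 (all but Nab1 and Nab2). Calls over all genes moved too: 1.52% were lower and 0.359% higher without HFD mouse 1, 1.57% lower and 0.59% higher without HFD mouse 2, 8.65% lower and 4.4% higher without CD mouse 1, and 13.2% lower and 10.1% higher without CD mouse 2. The counts without 1 mouse given for gene lists stand beside these shares.

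**Figure D3:**
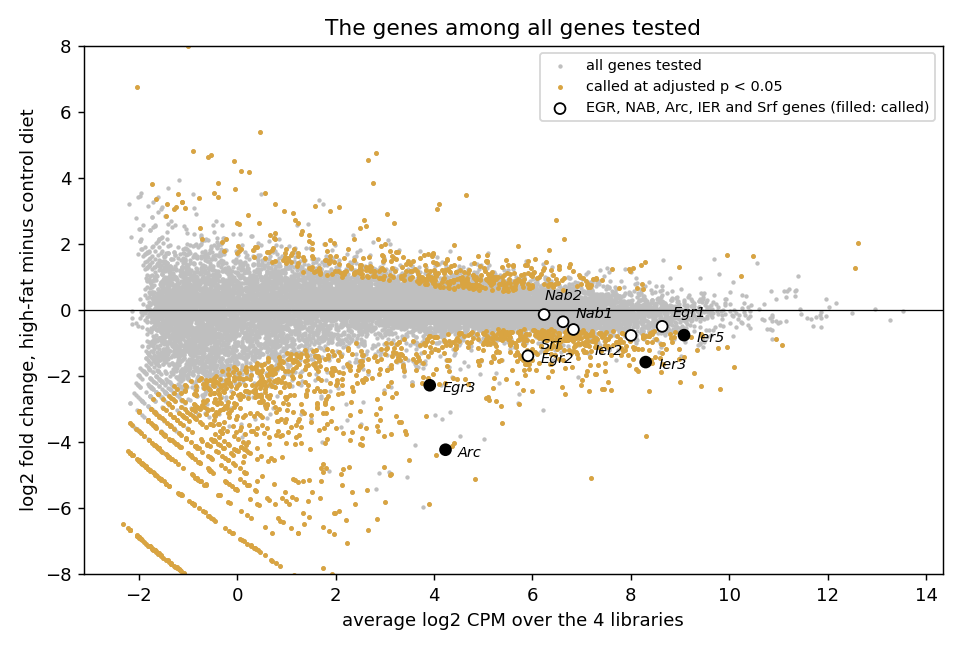
Log2 fold change, HFD minus CD (vertical axis), against the average log2 CPM (horizontal axis) of all 18422 genes tested, with called genes in ochre and the 10 members as circles, filled where called. The members span the range from an average log2 CPM of 3.91 (Egr3) to 9.08 (Ier5), all lie below 0, and 45 genes lie outside the vertical axis.

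Beyond the members, 49 other immediate early genes were listed and tested. Of them 16 were called lower and 1 higher, with a median log2 fold change of -0.53, beside 7.91% lower and 2.61% higher over all genes. The 4 of smallest p were all lower. Nr4a3, an orphan nuclear receptor, had 8.73 and 7.97 CPM in HFD mice and 369 and 199 CPM in CD mice (adjusted p = 0.00515). Its relative Nr4a2 had 42.9 and 40.0 CPM in HFD mice and 733 and 443 CPM in CD mice. Gadd45b, a stress-induced activator of MAP kinase signalling, had 51.1 and 58.3 CPM in HFD mice and 335 and 239.9 CPM in CD mice, and Dusp2, a phosphatase that turns ERK off, had 51.4 and 41.1 CPM in HFD mice and 166 and 144 CPM in CD mice. The 1 gene called higher was Rgs1, a brake on G-protein signalling, with 1546 and 1494 CPM in HFD mice and 291 and 663 CPM in CD mice (adjusted p = 0.0438, named after its values were seen). Both HFD mice were below both CD mice in 30 of the 49, beside 31.6% of all genes. They were above both in 8, beside 5930 of the 18422 genes tested. Among these 8 was Fos, with 2822 and 2724 CPM in HFD mice and 2053 and 1663 CPM in CD mice (adjusted p = 0.0901, named after its values were seen). DESeq2 called 22 lower and 2 higher. The number called lower was 8 without HFD mouse 1, 9 without HFD mouse 2 and 24 without CD mouse 2, and the number called higher was 0, 0 and 3 in these fits and 5 without CD mouse 1.

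Of 20 genes reported as targets of EGR factors, Nab2 among them, 4 (20%, beside 7.91% of all genes) were called lower and 0 higher by edgeR (13 at an unadjusted p below 0.05 in either direction, beside 31.3% of all genes), with a median log2 fold change of -0.62. DESeq2 called 9 lower and 2 higher. Socs1, an inhibitor of cytokine receptors, had 35.1 and 28.8 CPM in HFD mice and 217 and 107 CPM in CD mice (log2 fold change -2.34, SE 0.34, adjusted p = 0.0191). Cd274, the gene of PD-L1, had 155.5 and 175 CPM in HFD mice and 444 and 302 CPM in CD mice. Icam1, an adhesion receptor for leukocytes, had 112 and 90.6 CPM in HFD mice and 282 and 190.4 CPM in CD mice. Cdkn1a, the gene of the cell cycle inhibitor p21, had 186 and 230.4 CPM in HFD mice and 707 and 426 CPM in CD mice. In all 4 genes both HFD mice were below both CD mice. The number called lower was 0 without either HFD mouse and 10 without CD mouse 2.

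Of 26 genes of the ERK pathway, its feedback and its nuclear factors, 3 (11.5%, beside 7.91% of all genes) were called lower and 0 higher by edgeR (11 at an unadjusted p below 0.05 in either direction, beside 31.3% of all genes), with a median of 0.03; DESeq2 called 5 lower and 3 higher. Ets2, an ETS factor that ERK activates, had 151 and 192 CPM in HFD mice and 568 and 471 CPM in CD mice. Dusp5, a nuclear ERK phosphatase that was also on the list of other immediate early genes, had 38.2 and 48.9 CPM in HFD mice and 276 and 142 CPM in CD mice, and Ksr1, a scaffold of the pathway, had 12.1 and 12.35 CPM in HFD mice and 28.98 and 22.2 CPM in CD mice. Both HFD mice were below both CD mice in 8 of the 26, beside 31.6% of all genes. They were above both in 8, beside 5930 of the 18422 genes tested. Among those above was Dusp6, a cytoplasmic ERK phosphatase that ERK itself induces, with 378.5 and 308 CPM in HFD mice and 224 and 173 CPM in CD mice (adjusted p = 0.0544). The number called lower was 1 without HFD mouse 1, 1 without HFD mouse 2 and 5 without CD mouse 2, and 4 genes were called higher without CD mouse 1.

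The partners and actin-linked targets of SRF did not share one direction. Of 6 tested SRF cofactors edgeR called 0, and 1 had an unadjusted p below 0.05, beside 31.3% of all genes. Limma-voom called 0 and DESeq2 1 lower. Mrtfa, the actin-sensing coactivator, had 81.85 and 91.4 CPM in HFD mice and 143 and 115 CPM in CD mice (adjusted p = 0.0800), and its relative Mrtfb had 33.2 and 34.8 CPM in HFD mice and 46.8 and 40.3 CPM in CD mice. Elk3, a partner of SRF that ERK switches, had 136 and 149 CPM in HFD mice and 132 and 125 CPM in CD mice. Scai, a suppressor of MRTF, had 8.76 and 5.94 CPM in HFD mice and 4.19 and 5.94 CPM in CD mice. Of 19 tested actin and muscle-type targets, 3 were higher and 2 lower. Ccn2, a matrix-associated growth factor, had 2.59 and 4.065 CPM in HFD mice and 0.370 and 0.457 CPM in CD mice, and Acta2, smooth muscle actin, had 3.31 and 5.34 CPM in HFD mice and 1.017 and 1.022 CPM in CD mice. Ccn1, a relative of Ccn2 and itself an immediate early gene, had 110.4 and 102 CPM in HFD mice and 60.8 and 69.4 CPM in CD mice. Flna, which crosslinks actin filaments, had 1381 and 1382 CPM in HFD mice and 2610.0 and 2481 CPM in CD mice, and Zyx, a focal adhesion protein, had 305 and 309.6 CPM in HFD mice and 866 and 522 CPM in CD mice (named after its values were seen). Fibroblast and pericyte markers, among which Acta2 was also listed, were higher in the same HFD mice as given above, and their part in these values was not tested. Without HFD mouse 1 there were 2 higher and 0 lower, and without HFD mouse 2 there were 0 of either.

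Heat shock genes, which rise together with immediate early genes while cells are handled, were not called by edgeR in any of 13 cases. Limma-voom called 0 and DESeq2 2 lower. At an unadjusted p below 0.05 in edgeR there were 3 of the 13, beside 31.3% of all genes. The median log2 fold change of the list was -0.25. Dnaja1 had 35.6 and 29.8 CPM in HFD mice and 47.6 and 54.6 CPM in CD mice (adjusted p = 0.0558), Bag3 had 62.7 and 79.8 CPM in HFD mice and 109.5 and 105.5 CPM in CD mice, and Dnajb1 had 73.9 and 96.45 CPM in HFD mice and 115 and 118 CPM in CD mice. In each of these the HFD mice were below both CD mice, while Hspd1 had 112.5 and 113 CPM in HFD mice and 82.9 and 94.6 CPM in CD mice, with HFD mice above. Both HFD mice were below both CD mice in 8 of 13, beside 31.6% of all genes. The largest fitted difference was that of the inducible chaperone gene Hspa1a, with 49.5 and 179 CPM in HFD mice and 251 and 276 CPM in CD mice, and its near-identical copy Hspa1b had 84.0 and 347 CPM in HFD mice and 352 and 426.5 CPM in CD mice, so HFD mouse 1 stood apart in both, and reads may be split between the copies. The part of handling in the members' values was not tested. Among relatives of the members, a list that also holds Nab1 and Nab2, edgeR called 0 of 5. An unadjusted p below 0.05 was reached by 2, beside 31.3% of all genes. Limma-voom called 0 and DESeq2 1 higher. Ier3ip1, which is named for binding IER3, had 30.3 and 24.2 CPM in HFD mice and 9.83 and 16.9 CPM in CD mice (edgeR adjusted p = 0.0692).

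**Figure D4:**
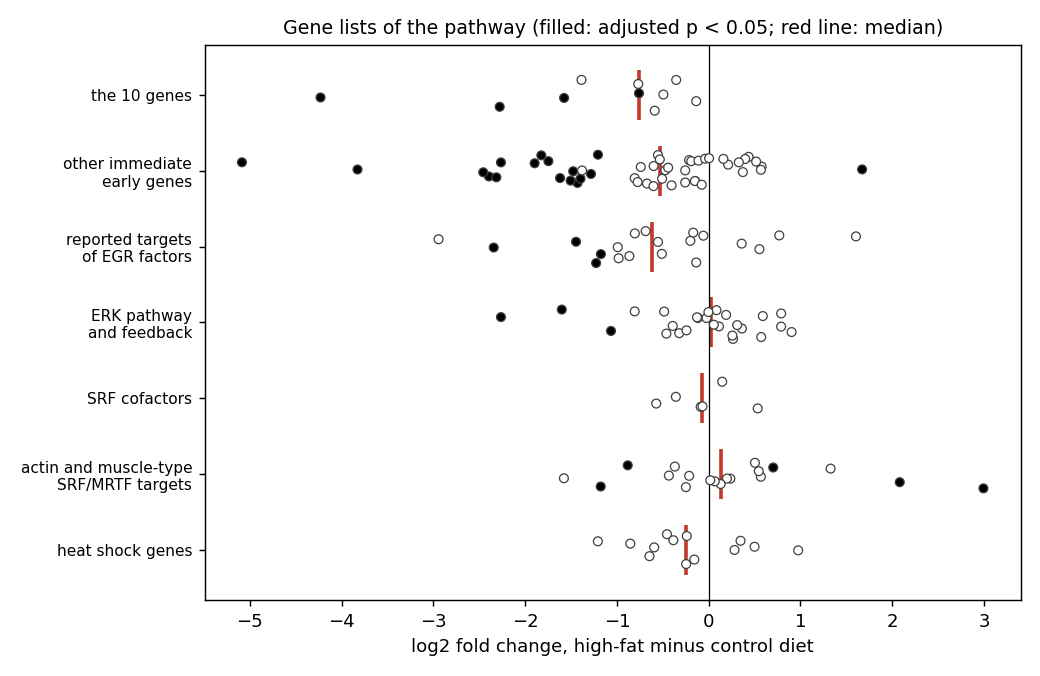
Log2 fold change, HFD minus CD (horizontal axis), of each tested gene of 7 groups (rows); points are genes, filled where adjusted p is below 0.05, and red lines are medians. Medians are -0.76 for the 10 genes, -0.53 for other immediate early genes and -0.62 for reported EGR targets, against 0.03 for the ERK pathway and 0.13 for the actin and muscle-type targets.

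Genes with the most similar pattern were taken from 9177 annotated genes whose average log2 CPM reached 3, by the Euclidean distance of centred log2 CPM over the 4 libraries. With 4 libraries such a likeness is a description, and many genes that differ between the diets lie close. Arc was nearest to Plekhg6 (distance 0.318), Nr4a2 (0.583) and Ildr1 (0.705), all of which were called lower. Egr3 was nearest to Socs1 (0.146), Egr2 to Ralgds (0.126), Egr1 to Xdh (0.0554), Ier2 to Pim1 (0.0286), Ier3 to Dedd2 (0.112) and Ier5 to Fam117b (0.0264). Srf was nearest to H2afj (0.0428), Nab1 to Pml (0.0354) and Nab2 to Neurl4 (0.0130).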

How the data were processed

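The authors deposited 1 table of raw counts with 53379 Ensembl gene identifiers and a column for each mouse; nothing in it is scaled. The submitters' processing notes name BWA 0.7.12, cutadapt 1.15, DESeq2 1.24.0 and FastQC 0.11.5, and the builds GRCm38 and mm10. Which program counted reads, with which strand setting, and how it treated multiple matches is not given in the sources used here. A stranded kit for mRNA served for the libraries, per the labels' protocols.

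Symbols were matched for 53274 identifiers, and positions came from GENCODE M21 for those of the same version (50604, including 9 of the 10 members). Counts were analysed with edgeR 4.0.16 in R 4.3.3: filterByExpr (minimum count 10, minimum total 15), TMM scaling, robust dispersions and the quasi-likelihood test, HFD minus CD with diet as the only term, and Benjamini-Hochberg adjustment over all genes tested. SE is the log2 fold change divided by the square root of F. An exact permutation test of 2 mice against 2 cannot go below p = 0.333, so none was used. DESeq2 1.42.0 and limma 3.58.1 (voom) were alternatives. The fit was run on simulated counts with the same dispersion for every gene and for both diets. That run checks the code and does not vouch for the calls made here.

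The members and lists were chosen with earlier results of these data known. The text names the members, up to 4 genes of smallest p per list, the nearest genes in pattern, neighbours within 30 kb and the sort markers. Neighbours were sought upstream on the same strand, among genes that reached 5 in average log2 CPM. Outside that rule lie Clec9a, Cd209a, Ly75, Batf3, Fscn1, Csf3r, Mmp9, Cdh1, Ighm, Pecam1, Hspa1a, Hspa1b, Rgs1, Fos, Zyx and the overlapping genes Stat6 and Nemp1. The AU-rich search was added after values were seen. Protein sequences were not used here.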

Additional observations from a re-analysis of the deposited data

How the results depend on the processing

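All 10 members kept a negative log2 fold change in all 10 alternatives, and no member was called higher in any. Arc was called in 10 of 10, Ier3 in 9, Egr3 in 8, Ier5 in 6, Egr2 in 4, Ier2 in 3, Srf in 2, Egr1 in 1, and Nab1 and Nab2 in 0. Without the filter on low counts, 30068 genes were tested, 1552 were called higher and 2231 lower, and Ier2 (adjusted p = 0.0402) and Srf (0.048) were called too. DESeq2 called 1082 genes higher and 2004 lower, and among the members also Egr2 (adjusted p = 0.000812) and Ier2 (0.03255). Over the 4 fits without 1 mouse, genes called higher ran from 71 to 1934, genes called lower from 300 to 2534, and members called lower from 1 to 8. Such a fit takes the spread between mice from the pair of the other diet. Scaling by DESeq2 size factors or by library totals changed no member's call. Same-numbered mice did not deviate together (correlation -0.188 over 10312 genes), so the numbers were not taken as pairs. With the mouse number as a replicate block, 567 genes were called higher and 1481 lower, and 4 members were lower, with Egr2 (adjusted p = 0.0233) in place of Ier5 (0.0552). A crossed pairing, added after the data were seen, gave 909 higher and 1546 lower genes and 5 members. With 2 mice per diet the intervals are wide: for the members not called, a difference as large as the interval printed beside each is compatible with these counts.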
